A study of Mus musculus with 89 samples.

Results

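The 9 Krüppel-like factor genes Klf2, Klf3, Klf4, Klf5, Klf6, Klf8, Klf9, Klf10 and Klf13 were followed by RNA-seq in mouse embryonic stem cells (ESCs) deprived of Esrrb, of Nr5a2 or of both nuclear receptors. They were taken by their symbols from the 54146 genes of the expression tables, and each symbol matched 1 row. All libraries came from EKOiE ESCs, so every group carried the knockout of endogenous Esrrb and a doxycycline (Dox)-inducible Esrrb transgene in its place. With Dox at 1 µg/ml these cells are called +E+N, and they are called −E when collected 2 days after Dox was withdrawn. EKOiE NrKO cells are a line derived from them in which exon 4 of Nr5a2 is disrupted on both alleles. They are called −N with Dox and −E−N after 2 days without it. Each state was cultured in FCS/LIF (serum with leukaemia inhibitory factor, 2 libraries per state) and in 2i/LIF (LIF with the MEK inhibitor PD0325901 and the GSK3 inhibitor CHIR99021, 3 libraries per state), giving 20 libraries in 8 groups.

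The study describes replicates as independent experiments, while the labels name neither the NrKO clone nor the culture behind each library. What is due to the NrKO line and what to Nr5a2 cannot be told apart here, and neither can the medium and the culture batch. Libraries held 36514172 to 45443379 counts in FCS/LIF and 26653035 to 32526534 counts in 2i/LIF. The lowest count of any of the 9 genes in any library was 262, for Klf4, so all 9 passed the filter of 20 counts through every state. Esrrb fell in −E in FCS/LIF (log2 fold change -2.18 ± 0.134, SE) and in −E−N in both media. In −E in 2i/LIF its counts covered 380 to 441 CPM (counts scaled to a common library size with TMM) against 515 to 608 in +E+N, without overlap, but its change was not called (log2 fold change -0.46, adjusted p = 0.116 by the quasi-likelihood test of edgeR, with p-values adjusted after Benjamini and Hochberg). Nr5a2 stayed detectable in −N, at 25.5 to 27.1 CPM against 36.1 to 39.8 in +E+N of FCS/LIF, and at 63.9 to 78.4 against 61.8 to 80.2 in 2i/LIF. Nr5a2 RNA also fell after Esrrb loss alone in FCS/LIF, to 19.2 to 19.6 CPM in −E, and this change was called (log2 fold change -0.98 ± 0.0851). In −E of 2i/LIF its change of -0.59 ± 0.209 was not. Between −E and −E−N, Esrrb RNA dropped further, with called log2 fold changes of -1.21 ± 0.137 in FCS/LIF and -1.51 ± 0.16 in 2i/LIF. Comparisons of −E with other states include these differences. Neither gene's count separates a disrupted allele from an intact or transgenic copy. The summed TPM (transcript share scaled to a fixed total, corrected for transcript length) of 5 ESC markers, Pou5f1, Sox2, Nanog, Zfp42 and Fgf4, lay between 1976 and 2554 in the states other than −E−N of 2i/LIF and between 1199 and 1609 in −E−N. In FCS/LIF it lay between 1758 and 2257 in the other states and between 1144 and 1316 in −E−N. Of these 5 ESC markers, 5 were called lower in −E−N of FCS/LIF (6.40% of all genes) and 4 in −E−N of 2i/LIF (9.56%). In −E, 3 were called lower in FCS/LIF (2.53% of all genes) and 0 in 2i/LIF (1.11%). Trophectoderm markers (Cdx2, Elf5, Eomes, Gata3 and Tfap2c) summed to more in −E−N, from 31.3 to 50.1 TPM in sum in the other states of FCS/LIF to 61.0 to 68.2 in −E−N. Of these 5, 4 were called higher and 0 lower there, beside 12.4% and 6.40% of all genes. In 2i/LIF their sum lay between 33.0 and 43.0 in the other states and between 63.4 and 90.3 in −E−N. Of 4 tested there, Cdx2 and Gata3 were called higher and Eomes lower, beside 9.06% and 9.56% of all genes. Mesoderm, fibroblast and primitive endoderm markers summed to at most 12.6 TPM in every library, and neural markers to 61.4 to 97.4 TPM in FCS/LIF but only 4.97 to 34.0 TPM in 2i/LIF. In −E−N of FCS/LIF, 3 of 5 fibroblast and 1 of 2 mesoderm markers tested were called higher (12.4% of all genes). Of the 4 neural markers 1 was higher and 1 lower (6.40% of all genes), and 0 of 5 primitive endoderm markers were called. In −E−N of 2i/LIF each of these 4 lists had 1 gene called higher (9.06% of all genes). Those other than mesoderm also had 1 called lower (9.56%). The part of these shifts in the Klf values was not tested, and in bulk RNA fewer cells that express a gene and less transcript in each cell cannot be told apart.

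Krüppel-like factors are transcription factors that bind GC boxes and CACCC boxes through zinc fingers at the C terminus. In ESCs, Klf2, Klf4 and Klf5 are known to support self-renewal with overlapping functions, and Klf4 is a target of the LIF-Stat3 pathway. Klf3 and Klf8 carry a motif that recruits CtBP corepressors, Klf9, Klf10 and Klf13 recruit the corepressor Sin3A, and Klf10 is induced by TGFβ. Klf6 is widely expressed and known as an early response gene in many cell types.

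In mm10, Klf2 lies on chromosome 8 from 72319033 to 72321656, Klf4 on chromosome 4 from 55527143 to 55532466 and Klf6 on chromosome 13 from 5861482 to 5870394. The DNA before the start sites of these 3 genes is shown because Klf2 and Klf4 gave the largest falls among the 9 genes in FCS/LIF, and Klf6 the largest rise. The sequences are from RefSeq on GRCm38.p6 and run 5′ to 3′ on the strand of the gene. They end before the first base of the gene in GENCODE vM21, and capitals mark matches to GGGCGGG or its reverse complement CCCGCCC, the core of a GC box.
Klf2 (chr8:72318812-72319032, plus strand): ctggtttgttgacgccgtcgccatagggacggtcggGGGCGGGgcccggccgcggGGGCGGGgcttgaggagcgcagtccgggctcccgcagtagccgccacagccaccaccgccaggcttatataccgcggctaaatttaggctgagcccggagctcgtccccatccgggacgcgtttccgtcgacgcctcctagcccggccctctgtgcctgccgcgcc
Klf4 (chr4:55532476-55532725, minus strand): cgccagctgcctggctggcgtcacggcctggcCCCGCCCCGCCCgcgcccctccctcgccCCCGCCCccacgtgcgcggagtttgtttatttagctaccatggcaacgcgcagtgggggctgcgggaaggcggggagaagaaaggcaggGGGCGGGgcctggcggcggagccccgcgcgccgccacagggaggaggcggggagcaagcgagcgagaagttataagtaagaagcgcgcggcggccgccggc
Klf6 (chr13:5861239-5861481, plus strand): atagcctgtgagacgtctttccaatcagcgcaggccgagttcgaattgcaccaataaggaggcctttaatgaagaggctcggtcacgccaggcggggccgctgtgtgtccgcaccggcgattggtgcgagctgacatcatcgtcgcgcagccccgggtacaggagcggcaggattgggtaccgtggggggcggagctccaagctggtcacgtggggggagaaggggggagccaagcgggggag
Over the 250 bases before the RefSeq start, and with overlapping matches counted, Klf2 held 2 matches to GGGCGGG on either strand, Klf4 held 4 and Klf6 held 0, while 23.4% of the 32851 windows of this length held at least 1. A window was found for 7 of the 9 genes, and not for Klf5 and Klf10. Klf3 held 4 matches, Klf13 held 2, 1 of the 2 windows of Klf8 held 1, and Klf9 held 0. Among the 8 windows of these 7 genes, the CACCC-box form GGGTGTGG was found in 0 (3.20% of all windows) and GGGCGTGG in 1, that of Klf13 (4.79% of all windows). The motifs TCAAGGTCA and TCAAGGCCA, forms of the sequence recognised by Esrrb and Nr5a2, were found in 0 of the 8, and so were their shorter cores AAGGTCA and AAGGCCA, which the longer forms contain. These 4 motifs were found in 0.387%, 0.511%, 4.08% and 5.24% of all windows, on either strand. The windows of the 7 genes held 54.8% to 78.4% G and C, beside a median of 52.4% over all windows. A match is a description of letters, and its absence says only that these letters are not in this window.

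In +E+N cells, Klf2 had the highest transcript level of the 9 genes in both media, at 94.0 ± 4.06 TPM in FCS/LIF (SD, n = 2) and 206 ± 22.4 TPM in 2i/LIF (SD, n = 3). Klf5 came next in both, at 59.8 ± 1.22 and 68.0 ± 5.87 TPM. In FCS/LIF the lowest level was that of Klf8, at 7.83 ± 0.757 TPM. In 2i/LIF, Klf6, Klf8 and Klf13 shared the lowest levels, with means between 13.3 and 14.3 TPM. Compared with FCS/LIF, 3 of the 9 genes were higher in 2i/LIF in +E+N cells and 1 was lower. Among all genes tested in this comparison, 17.2% were called higher and 17.5% lower. Calls here and below needed an adjusted p under 0.01 together with a fold change over 1.5, unless other limits are given. Klf2 was 2.25-fold higher (log2 fold change 1.17 ± 0.128, SE), Klf4 1.72-fold (0.78 ± 0.145) and Klf8 1.67-fold (0.74 ± 0.200), and Klf6 was lower, with a log2 fold change of -0.94 ± 0.107. The difference of Klf8 was not past the limits without either +E+N library of FCS/LIF or without replicate 1 of +E+N in 2i/LIF, when it lay between 0.57 and 0.88, nor by limma on TPM values (0.70). That of Klf4 was under the fold limit with libraries blocked by replicate number (0.53). Klf9 had a log2 fold change of -0.58, just short of the limit of 0.585, and its libraries did not overlap between the media. It was past the limit when any of 9 of the 20 libraries was left out (-0.60 to -0.59).

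**Figure D1:**
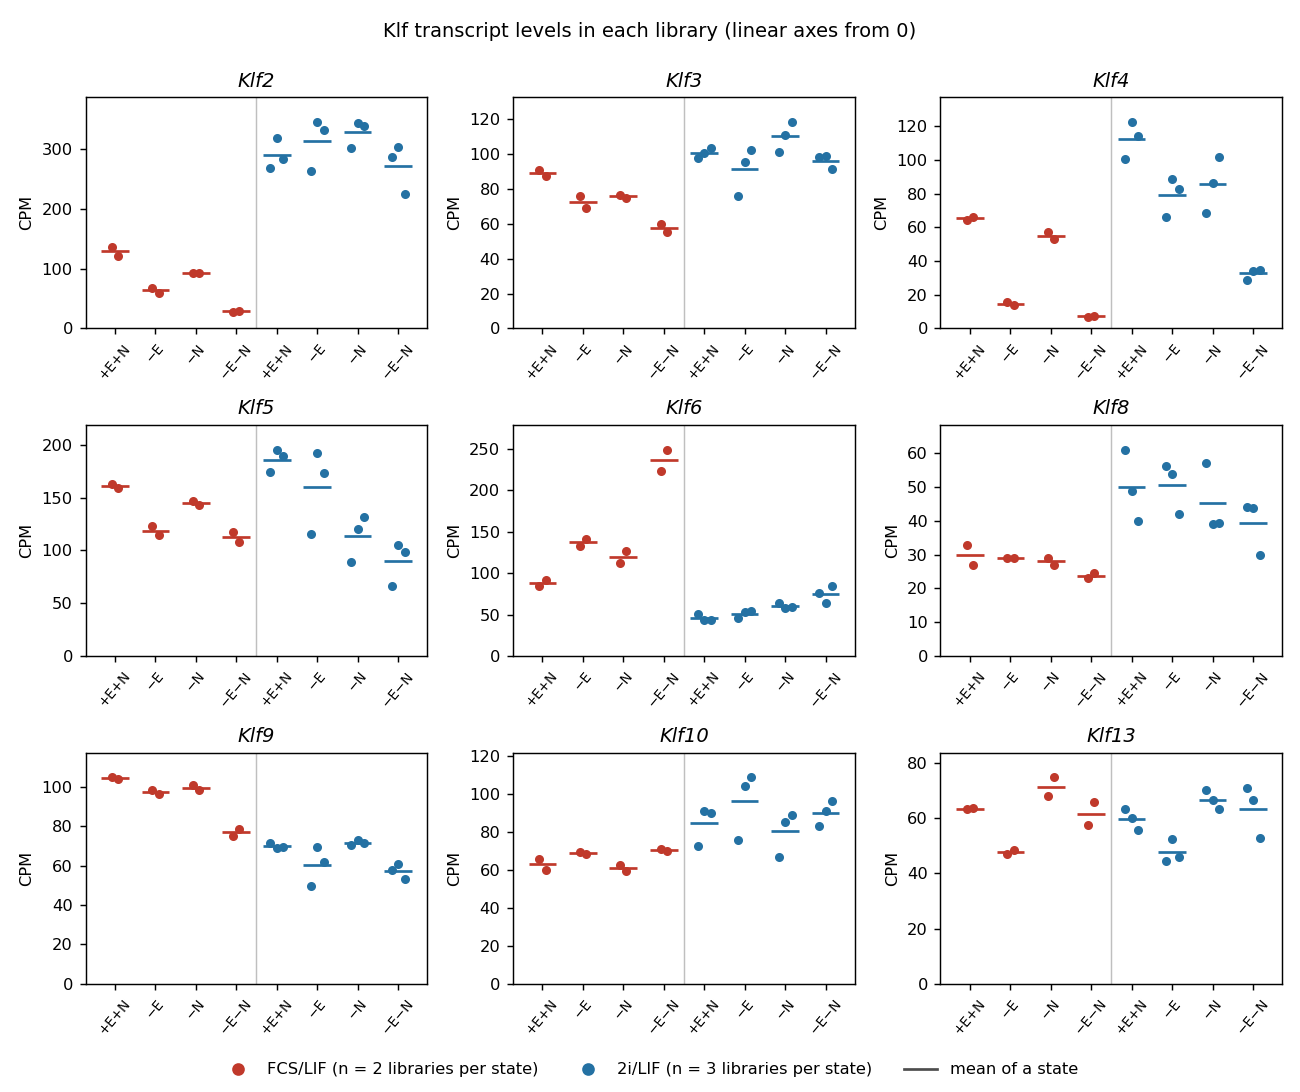
Level of each of the 9 Klf transcripts in CPM (linear y axis from 0) in every library, by state (x axis) and medium (red, FCS/LIF, n = 2 per state; blue, 2i/LIF, n = 3 per state), with a line at the mean of each state. Klf2 and Klf4 step down from +E+N to −E−N in FCS/LIF, Klf6 steps up, and the 4 states of Klf2 overlap in 2i/LIF.

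In FCS/LIF, loss of Esrrb lowered Klf2 and Klf4 and raised Klf6. With 2 of 9 genes called lower and 1 called higher in −E, the background was 2.53% of all 15636 genes tested called lower and 3.23% called higher. Loss of both factors deepened these changes and added Klf3, so that 3 of the 9 were called lower and 1 higher in −E−N, where 6.40% of all genes were called lower and 12.4% higher. The 9 genes had a median log2 fold change of -0.31 in −E, beside -0.0025 over all genes tested, and of -0.46 in −E−N, beside 0. In −N, 0 of the 9 were called by edgeR's quasi-likelihood test, and 0 by DESeq2 or by limma on TPM values, while 0.0959% of all genes were called lower and 0.0767% higher. At an unadjusted p under 0.05 stood 5 of the 9 in −N against +E+N, and the estimates of 7 lay below 0. The share of all genes at an unadjusted p under 0.05 is not given, here or below. Such counts therefore have no background to be read against.

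In 2i/LIF, where every library had more Klf2 than any library of FCS/LIF, loss of both factors lowered Klf4 and Klf5 and raised Klf6. These made 2 genes called lower and 1 called higher of 9, with 9.56% of all 14355 genes tested called lower and 9.06% higher. The median over the 9 genes was -0.08 on the log2 scale, and 0.01 over all genes. In −E, 0 of the 9 were called by edgeR, DESeq2 or limma (1.11% of all genes lower and 0.439% higher), with 3 at an unadjusted p under 0.05. In −N, 0 of the 9 were called by edgeR and limma (2.04% of all genes lower and 1.61% higher), with 3 at an unadjusted p under 0.05, and 1 by DESeq2. The gene called by DESeq2 was Klf5, beside 860 of all 14355 genes called by that tool.

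**Figure D2:**
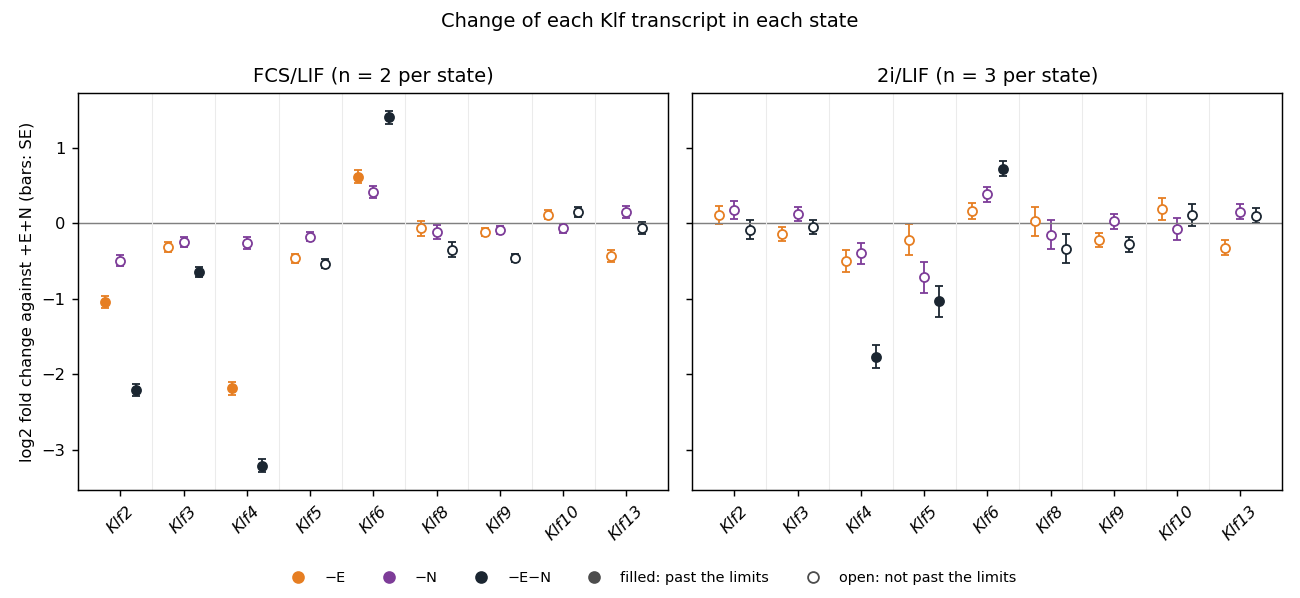
Log2 fold change of each Klf transcript against +E+N (y axis; bars, SE from edgeR) in −E (orange), −N (purple) and −E−N (black), in FCS/LIF on the left and 2i/LIF on the right. Filled points are past the limits of adjusted p under 0.01 and fold change over 1.5, which holds for 3 genes in −E and 4 in −E−N of FCS/LIF, and for 3 in −E−N of 2i/LIF.

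Klf4, one of the reprogramming factors, had the lowest log2 fold change of the 9 genes in −E−N in both media. In FCS/LIF its libraries stood at 64.4 and 66.4 CPM in +E+N, at 15.5 and 13.6 after Esrrb loss (−E), at 57.4 and 52.9 after Nr5a2 loss (−N), and at 6.88 and 7.44 after both (−E−N). No state overlapped another, and −E−N held the lowest values. The log2 fold change was -2.19 ± 0.0840 in −E (adjusted p = 2.80e-06, edgeR, Benjamini-Hochberg) and -3.21 ± 0.0907 in −E−N (adjusted p = 1.25e-07 by the same edgeR test), and in each comparison 41 of the 15636 genes tested had a lower estimate. In −N it was -0.26 ± 0.0777 and not past the limits (adjusted p = 0.130 by the same edgeR test).

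In 2i/LIF, Klf4 stood at 100.5, 122 and 114 CPM in +E+N, at 66.2, 88.6 and 82.8 after Esrrb loss (−E), at 68.6, 86.5 and 102 after Nr5a2 loss (−N), and at 28.8, 34.2 and 34.9 after both (−E−N). The −E−N libraries lay below those of all other states. Those of −E lay below +E+N without overlap, whereas −E and −N overlapped each other and −N overlapped +E+N. The log2 fold change in −E−N was -1.77 ± 0.149 (adjusted p = 2.54e-06 by the same edgeR test). Those of -0.50 ± 0.144 in −E and -0.40 ± 0.143 in −N were not past the limits (adjusted p = 0.0614 and 0.101 by the same edgeR test). Over the 8 groups, Klf4 spanned 15.7-fold between the highest mean, +E+N in 2i/LIF, and the lowest, −E−N in FCS/LIF, the widest span of the 9 genes. In that order −E−N in 2i/LIF, at 32.7 ± 3.34 CPM (SD, n = 3), stood between −N and −E of FCS/LIF without overlapping either.

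Klf2, which MEK/ERK signalling is known to hold down in ESCs, was called in FCS/LIF and overlapped across all states in 2i/LIF. In FCS/LIF it stood at 136 and 122 CPM in +E+N, at 67.0 and 60.0 after Esrrb loss (−E), at 92.7 and 93.0 after Nr5a2 loss (−N), and at 27.6 and 29.0 after both (−E−N). Again no state overlapped another. The log2 fold change was -1.04 ± 0.0759 in −E (adjusted p = 5.91e-05), -0.49 ± 0.0748 in −N (adjusted p = 0.0205, not past the limits) and -2.20 ± 0.0800 in −E−N (adjusted p = 5.32e-07), all by the quasi-likelihood test of edgeR.

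In 2i/LIF, Klf2 stood at 267, 318 and 284 CPM in +E+N, at 263, 345 and 331 after Esrrb loss (−E), at 302, 343 and 339 after Nr5a2 loss (−N), and at 286, 303 and 224 after both (−E−N). All 4 states overlapped, and every library lay above the highest of FCS/LIF. The log2 fold change in −E−N was -0.08 ± 0.120, and in −E and −N it was 0.11 ± 0.120 and 0.17 ± 0.120. In the order of the 8 groups the 4 states of 2i/LIF came first, each overlapping its neighbour, followed by +E+N, −N, −E and −E−N of FCS/LIF with no overlap, and the span was 11.6-fold.

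Klf5, on chromosome 14 from 99298691 to 99315036, is the third of the Klf genes tied to self-renewal. In 2i/LIF it stood at 174, 195 and 189 CPM in +E+N, at 115, 192 and 173 after Esrrb loss (−E), at 89.3, 119.9 and 132 after Nr5a2 loss (−N), and at 66.1, 106 and 98.8 after both (−E−N). The −N and −E−N libraries all lay below those of +E+N, while −E overlapped +E+N. In each of the 4 states the library with replicate number 1 was the lowest of the 3, as it was for Klf4 and Klf10, and the labels do not say what libraries with the same number share. The fall of 1.03 on the log2 scale in −E−N was past the limits (SE 0.204, adjusted p = 0.00153 by the quasi-likelihood test of edgeR). In −N the log2 fold change was -0.72 ± 0.203 (adjusted p = 0.0408 by the same edgeR test, not past the limits). With libraries blocked by replicate number it was -0.74 and past them (adjusted p = 0.000106 by the same edgeR test).

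In FCS/LIF, Klf5 stood at 163 and 159.5 CPM in +E+N, at 123 and 114 after Esrrb loss (−E), at 146 and 143 after Nr5a2 loss (−N), and at 118 and 108 after both (−E−N). Here −E and −E−N overlapped, and both lay below +E+N and −N. The log2 fold change of Klf5 came to -0.46 ± 0.0606 in −E and -0.53 ± 0.0607 in −E−N, with adjusted p = 0.00125 and 0.000180 by the same edgeR test but a fold change under 1.5, and without replicate 1 of −E−N the latter was -0.61 and past the limits. From −E to −E−N, Klf5 had a log2 fold change of -0.07 ± 0.0608 in FCS/LIF, and in 2i/LIF it was -0.81 ± 0.204 (adjusted p = 0.00896 by the same edgeR test). The latter call was lost on leaving out any of 9 of the 12 libraries, that is, any other than replicate 1 of −E and replicates 1 and 3 of −N, with values between -0.95 and -0.63 in these 9 fits.

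Klf6 moved opposite to Klf2 and Klf4. In FCS/LIF it stood at 84.7 and 91.7 CPM in +E+N, at 132 and 142 after Esrrb loss (−E), at 112 and 126 after Nr5a2 loss (−N), and at 223 and 249 after both (−E−N). All 4 states were apart, in the reverse of the order of Klf2. It rose in −E by a log2 fold change of 0.62 ± 0.0836 (adjusted p = 0.00143 by the quasi-likelihood test of edgeR) and in −E−N by 1.40 ± 0.0843 (adjusted p = 6.42e-06 by the same edgeR test). The value in −E was not past the limits without replicate 1 of +E+N (0.57) or replicate 2 of −E (0.57), and that of 0.42 ± 0.0835 in −N was not past them (adjusted p = 0.0451 by the same edgeR test).

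In 2i/LIF, Klf6 stood at 50.8, 43.1 and 43.7 CPM in +E+N, at 46.2, 53.4 and 54.0 after Esrrb loss (−E), at 63.5, 57.7 and 59.0 after Nr5a2 loss (−N), and at 76.7, 64.0 and 84.4 after both (−E−N). The −N and −E−N libraries lay above all of +E+N and −E, which overlapped, and every library of −E−N lay above those of −N. The rise in −E−N was 0.73 ± 0.103 on the log2 scale (adjusted p = 0.000136 by the same edgeR test). That in −N, 0.38 ± 0.103, was not past the limits (adjusted p = 0.0325 by the same edgeR test).

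Klf3, on chromosome 5 from 64803388 to 64832901, stood at 91.0 and 87.3 CPM in +E+N of FCS/LIF, at 75.9 and 69.1 after Esrrb loss (−E), at 76.9 and 74.9 after Nr5a2 loss (−N), and at 59.8 and 55.4 after both (−E−N). The −E and −N libraries overlapped each other between +E+N and −E−N. The fall of 0.65 on the log2 scale in −E−N (SE 0.0669) was past the limits (adjusted p = 0.000104 by the quasi-likelihood test of edgeR). The values of -0.31 in −E and -0.25 in −N were not. In 2i/LIF the 12 libraries lay between 76.2 and 118 CPM, and no log2 fold change against +E+N went beyond -0.14 or 0.12.

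The other 4 genes were not called in any comparison with +E+N. Klf9 came closest, on chromosome 19 from 23141226 to 23168134. In FCS/LIF its libraries were at 105 and 104 CPM in +E+N and at 75.1 and 78.8 in −E−N, without overlap, a log2 fold change of -0.46 ± 0.0536 (adjusted p = 0.000207 by the same edgeR test, with a fold change under 1.5). In 2i/LIF its −E−N libraries, at 52.9 to 60.8 CPM, also lay below those of +E+N, at 69.1 to 71.6 (log2 fold change -0.28 ± 0.0963, adjusted p = 0.0344 by the same edgeR test). Klf8, on chromosome X from 153237466 to 153396132, was at 32.9 and 27.1 CPM in +E+N and 23.2 and 24.4 in −E−N of FCS/LIF, a log2 fold change of -0.35 ± 0.0982. Its TPM did not follow its CPM there, at 7.83 ± 0.757 in +E+N and 9.22 ± 3.14 in −E−N (SD, n = 2), and TPM also depends on the transcript lengths estimated in each library. Klf13, on chromosome 7 from 63886351 to 63938915, was lower in −E of both media, at 47.0 and 48.4 CPM against 63.5 and 63.7 in FCS/LIF, and at 44.5, 52.5 and 45.9 against 63.4, 60.2 and 55.8 in 2i/LIF. The states did not overlap in either medium, but the log2 fold changes of -0.43 ± 0.0799 and -0.33 ± 0.101 were not past the limits. In −E−N it stood at 57.5 and 65.9 CPM in FCS/LIF and at 70.8, 66.7 and 52.9 in 2i/LIF, overlapping +E+N in both. The −N libraries, from the same NrKO line, lay above those of −E−N in FCS/LIF, at 68.2 to 74.9 CPM. In 2i/LIF, at 63.4 to 70.4 CPM, they overlapped those of −E−N. Klf10, on chromosome 15 from 38291463 to 38300706, kept log2 fold changes against +E+N between -0.08 and 0.19 in the 6 comparisons.

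The second loss was then compared with each of the first. Removing Esrrb from cells that lacked Nr5a2 (−E−N against −N) lowered Klf2 and Klf4 and raised Klf6 in FCS/LIF, which made 2 genes called lower (3.49% of all genes) and 1 called higher (6.57%). Their log2 fold changes were -1.71 ± 0.0793, -2.94 ± 0.0903 and 0.99 ± 0.0832. In 2i/LIF 1 gene was called lower (3.36% of all genes) and 0 higher (3.39%), and it was Klf4, at -1.37 ± 0.148. Lacking Nr5a2 as well as Esrrb (−E−N against −E) went with a lower Klf2, at -1.16 ± 0.0791, a lower Klf4, at -1.02 ± 0.0927, and a higher Klf6, at 0.78 ± 0.0828, in FCS/LIF. These were 2 genes called lower (1.53% of all genes) and 1 higher (3.52%), and the value of Klf6 was not past the limits without replicate 1 of −E (0.71) or replicate 2 of −E−N (0.68). In 2i/LIF, Klf4, at -1.26 ± 0.148, and Klf5 made 2 genes called lower (6.21% of all genes), and 0 were called higher (6.90%). Klf6, at 0.56 ± 0.103, stayed under the fold limit, and was past it without replicate 2 or 3 of −E or replicate 2 of −E−N (0.59 to 0.66). In both media the −E and −E−N cells also differed in Esrrb RNA, and the part of that difference in these Klf values was not tested.

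For Klf4, the double loss lay below the sum of the single losses in both media. In FCS/LIF the sum of the log2 fold changes in −E and −N was -2.45, and the value in −E−N was -3.21. In 2i/LIF the sum was -0.90 and the value in −E−N -1.77. The interaction, which is the log2 fold change in −E−N less those of the single losses, was -0.76 ± 0.121 for FCS/LIF and -0.87 ± 0.205 for 2i/LIF, and neither was past an adjusted p of 0.01 (0.0939 and 0.0643 by the quasi-likelihood test of edgeR). Klf2 had an interaction of -0.67 ± 0.108 in FCS/LIF (adjusted p = 0.0966 by the same edgeR test). Over the 9 genes 0 were called for an interaction in either medium by edgeR or limma (0.0320% of all genes for FCS/LIF, 0.307% for 2i/LIF), with 4 at an unadjusted p under 0.05 in FCS/LIF and 1 in 2i/LIF. DESeq2 called 2 in FCS/LIF, Klf2 and Klf4, beside 63 of all 15636 genes. In 2i/LIF it called 1, Klf4, beside 303 of all 14355 genes. With libraries blocked by replicate number, edgeR also called Klf4 in 2i/LIF (-0.85, adjusted p = 0.000505 by the same edgeR test). That fit called 324 of the 14355 genes. Klf5 lay close to the sum of the single losses in both media, with interactions of 0.11 ± 0.0857 and -0.10 ± 0.286. Esrrb RNA itself also lay below its sum, with interactions of -0.81 ± 0.186 (FCS/LIF) and -1.28 ± 0.224 (2i/LIF), neither called. Esrrb loss was therefore not matched between −E and −E−N cells, and its part in the Klf interactions was not tested.

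**Figure D3:**
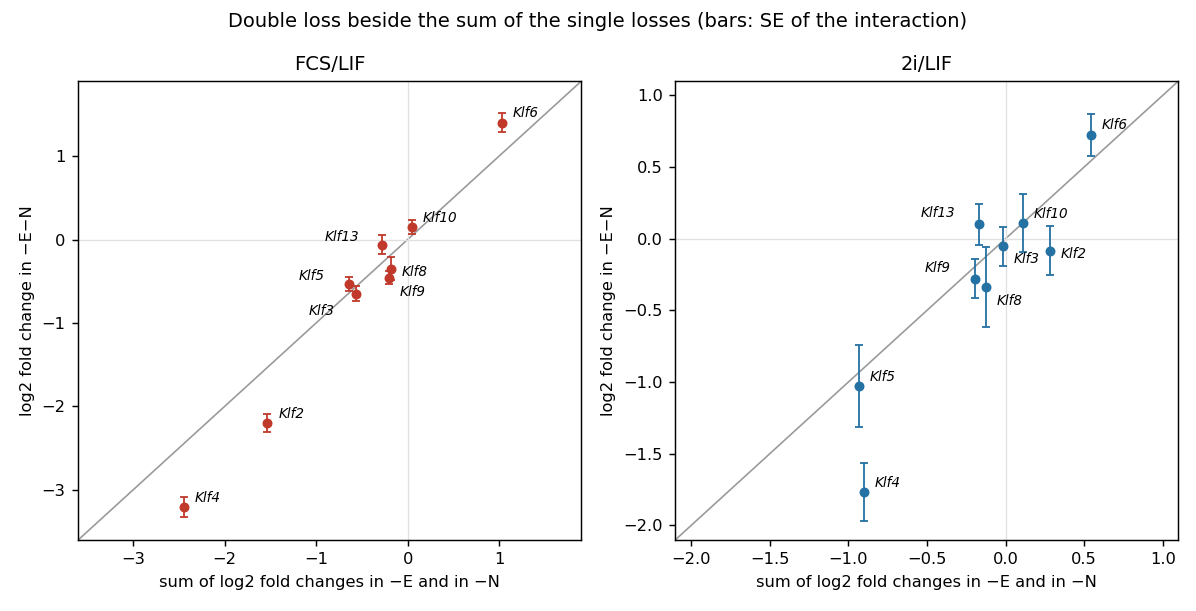
Log2 fold change of each Klf transcript in −E−N (y axis) against the sum of its log2 fold changes in −E and in −N (x axis), in FCS/LIF (left, red) and 2i/LIF (right, blue). The line marks equality and the bars are the SE of the interaction. Klf4 lies below the line in both media, at -3.21 for a sum of -2.45 and at -1.77 for a sum of -0.90. Esrrb RNA, which is not drawn, also had estimates below the sum of its single losses in both media.

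Whether a response differed between FCS/LIF and 2i/LIF was tested in a fit of all 20 libraries over 16147 genes, where an adjusted p under 0.01 made a call whatever the size. For the response to Esrrb loss, 2 of the 9 genes differed (1.06% of all genes), Klf2 by -1.13 ± 0.176 and Klf4 by -1.66 ± 0.206. Klf4 had the lower estimate in FCS/LIF, and Klf2 fell there (-1.04) but not in 2i/LIF (0.11 ± 0.120). For the response to both losses, 4 of the 9 differed (13.2% of all genes): Klf2 by -2.09 ± 0.179, Klf4 by -1.41 ± 0.214, Klf3 by -0.56 ± 0.138 and Klf6 by 0.71 ± 0.152. For the response to Nr5a2 loss, 0 of 9 differed by edgeR, DESeq2 or limma (0.743% of all genes by edgeR), with 2 at an unadjusted p under 0.05. The largest of these was -0.65 ± 0.175 for Klf2 (adjusted p = 0.0538 by the quasi-likelihood test of edgeR), and with libraries blocked by replicate number it was -0.65 and called (adjusted p = 0.00660 by the same edgeR test). In −E the call of Klf2 was lost without replicate 1 of +E+N (-1.04) or replicate 2 of −E (-1.06) of FCS/LIF. In −E−N that of Klf6 was lost without replicate 1 of +E+N (0.66) or replicate 2 of −E−N (0.60) of FCS/LIF, and limma on TPM values called neither Klf4 (-1.01) nor Klf3 (-0.30) there. The call of Klf3 was also lost without any of 9 of the 10 libraries of +E+N and −E−N (all but replicate 3 of −E−N in 2i/LIF). In the same fit the response of Esrrb RNA itself differed between the media. This difference was -1.70 ± 0.244 in −E and -1.39 ± 0.246 in −E−N, both called, while those of Nr5a2 RNA were not called. The part of the Esrrb difference in these Klf values was not tested.

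The make-up of the Klf transcripts shifted with these changes. The 9 genes summed to 329.7 ± 2.03 TPM in +E+N of FCS/LIF and 268 ± 11.2 in −E−N (SD, n = 2), and to 460.5 ± 39.4 and 376 ± 34.3 TPM in 2i/LIF (SD, n = 3). Klf2, Klf4 and Klf5 together held 55.0% ± 0.561 of that sum in +E+N of FCS/LIF and 48.5% ± 0.815 in −N, then 38.0% ± 1.85 in −E but 27.1% ± 0.111 in −E−N (SD, n = 2). No state overlapped another in this share. Klf6 held 8.52% ± 0.625, 13.9% ± 1.40, 18.7% ± 0.961 and 32.3% ± 0.103 over the same states in this order, also without overlap, and in −E−N it had the highest TPM of the 9 genes.

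In 2i/LIF, Klf2, Klf4 and Klf5 held 69.6% ± 1.37 of the sum in +E+N and 64.4% ± 2.22 in −E−N (SD, n = 3), without overlap. Klf2 alone held 44.7% ± 1.06 in +E+N and 51.8% ± 4.06 in −E−N, while Klf4 went from 10.2% ± 0.394 to 3.72% ± 0.698 and Klf5 from 14.8% ± 0.409 to 8.91% ± 2.17. Klf6 held 2.92% ± 0.439 in +E+N and 6.10% ± 1.46 in −E−N. These shares are given as a description, without a test.

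**Figure D4:**
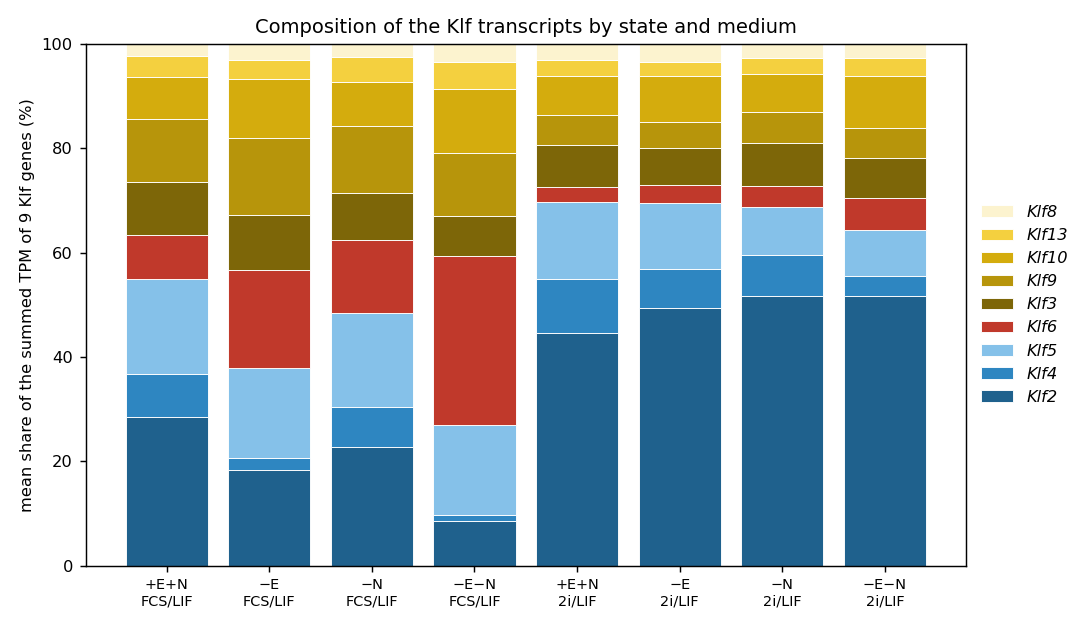
Mean share of each gene in the summed TPM of the 9 Klf genes (y axis, percent, from 0 to 100) in the 4 states of each medium (x axis; n = 2 libraries per state in FCS/LIF and 3 in 2i/LIF). Klf2, Klf4 and Klf5 (blue) hold 55.0% in +E+N and 27.1% in −E−N of FCS/LIF, and 69.6% and 64.4% in 2i/LIF, and Klf6 (red) takes 32.3% in −E−N of FCS/LIF.

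The 9 genes were also compared with one another over the 20 libraries, as log2 CPM with the mean of each medium removed. These coefficients are descriptive, since the libraries share 8 groups. Klf2 and Klf4 had a Pearson r of 0.84, Klf2 and Klf3 0.84, and Klf3 and Klf9 0.83. Klf6 ran against Klf4 (-0.89) and Klf2 (-0.83). Klf5 had an r of 0.69 with Klf4 and 0.38 with Klf2. Among 11738 genes averaging 100 counts or more per library, the 3 most like Klf4 were Esrrb (0.97), Tet2 (0.97), which encodes a DNA demethylation enzyme, and Triml2 (0.97). For Klf2 they were Platr14 (0.95), H2-M5 (0.94) and Morc1 (0.94), and for Klf3 they were Aspm (0.90), Usp28 (0.89) and Gm2381 (0.89). For Klf5 they were Nphp4 (0.94), Camta1 (0.94) and Prkar2a (0.94). Genes with a pattern near that of Klf6 included Tpm1 (0.96), a tropomyosin gene, and AI314180 (0.95).

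Other genes of the family and its partners were counted as lists. Of the 8 other Klf genes in the table, 7 were tested in FCS/LIF, of which −E−N had 2 higher and 2 lower, beside 12.4% and 6.40% of all genes. They were Klf15 (log2 fold change -1.87 ± 0.121), Klf12 (-0.59 ± 0.141), Klf7 (0.80 ± 0.0850) and Klf14 (1.88 ± 0.440). DESeq2 called 3 of the 7 and limma 1, beside 2852 and 2372 of all 15636 genes. In 2i/LIF, 5 were tested and 0 called in −E−N by edgeR, DESeq2 or limma, with 1 at an unadjusted p under 0.05, where 9.06% of all genes were higher and 9.56% lower. The related Sp genes also bind GC boxes. Of 8 tested in FCS/LIF, 3 were higher in −E−N (12.4% of all genes) and 0 lower (6.40%), Sp8 by 3.67 ± 0.196, Sp5, a target of Wnt signalling, by 3.17 ± 0.219 and Sp6 by 0.88 ± 0.151. Of 7 tested in 2i/LIF, 2 were higher (9.06% of all genes) and 0 lower (9.56%), Sp8 by 3.60 ± 0.200 and Sp5 by 3.05 ± 0.382. After Esrrb loss alone the same 3 Sp genes were called higher in FCS/LIF (3.23% of all genes). In 2i/LIF 0 of 7 were called by edgeR, DESeq2 or limma, with 3 at an unadjusted p under 0.05. By edgeR only 0.439% of all genes were called higher there and 1.11% lower. After Nr5a2 loss alone in 2i/LIF, Sp8 was called higher, by 2.29 ± 0.198, and Sp6 lower, at -0.97 ± 0.156 (1.61% of all genes higher and 2.04% lower). In −E−N the Sp genes had a median log2 fold change of 0.27 in FCS/LIF, against 0.13 in 2i/LIF.

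Of 14 genes for cofactors and modifiers of Klf proteins, 1 was called higher (12.4% of all genes) and 2 lower (6.40%) in −E−N of FCS/LIF. These were Sin3b at 1.02 ± 0.120, Sin3a, which encodes the corepressor bound by Klf9, Klf10 and Klf13, at -0.68 ± 0.0546, and the acetyltransferase gene Kat2b at -1.01 ± 0.133. In −E−N of 2i/LIF 0 of 13 were called by edgeR, DESeq2 or limma, with 5 at an unadjusted p under 0.05. By edgeR 9.06% of all genes were called higher there and 9.56% lower. The 7 genes listed for the LIF-Stat3 pathway were tested in both media. In −E−N of FCS/LIF, 2 were higher (12.4% of all genes) and 2 lower (6.40%). The LIF receptor gene Lifr was at -1.47 ± 0.0667 and the feedback inhibitor gene Socs3 at -0.60 ± 0.108, while Pim1, a Stat3 target, was at 0.70 ± 0.0846 and the kinase gene Jak2 at 1.38 ± 0.200. Limma called 2 of the 7, beside 2372 of all 15636 genes. In −E−N of 2i/LIF, 0 were higher (9.06% of all genes) and 2 lower (9.56%), Lifr at -1.30 ± 0.171 and Pim1 at -1.73 ± 0.0967. Stat3 itself was at -0.11 ± 0.0639 and 0.02 ± 0.0738.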

How the data were processed

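RNA-seq of 20 libraries was used, out of 89 samples of the series. The 69 ChIP-seq samples were not used here. According to the methods and labels, stranded read pairs were aligned to mm10 with STAR, and RSEM gave an expected count per gene and library. These expected counts were deposited by the authors, with no scaling between libraries, together with TPM values from RSEM, which the authors also deposited. Of the 54238 rows, 92 were ERCC spike-ins, which had a total count of 0 and were dropped. Expected counts were rounded. Where genes overlap or are near-identical, RSEM divides reads by estimation and such counts are less certain.

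For each medium, edgeR 4.0.16 (R 4.3.3) was fitted to its 4 states, with TMM scaling and the quasi-likelihood test. Genes needed 20 counts in every replicate of some state, which left 15636 in FCS/LIF and 14355 in 2i/LIF. Calls required a Benjamini-Hochberg adjusted p under 0.01, with a fold change over 1.5 for comparisons of states. Errors of fold changes are standard errors. CPM values of the 20 libraries share a TMM scale, and likeness used log2 CPM with a prior count of 2. The steps were also run on simulated counts, with changes put into −E−N only. Simulated libraries shared no effect by replicate number, so that run does not cover such an effect. Replicates differed beyond counting noise in each state (chi-square over degrees of freedom, 4.28 to 28.3).

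The genes and lists were chosen with earlier results of these data known. The text names the 9 genes, the targeted genes, up to 3 genes of each list by the lowest adjusted p in −E−N in each medium, and the 3 genes most like each of the 5 genes called in −E−N, of which 1 is not reported here. Klf12, Sp6, Socs3, Stat3, Cdx2, Gata3 and Eomes were singled out after their values were seen. Same-numbered libraries were checked for shared deviations from the state means. In 2i/LIF each pair had a correlation over 0.1 for −E against +E+N, −N against +E+N, −E−N against −N and −E−N against −E, and 1 pair was at -0.0182 for −E−N against +E+N. The labels do not say what a number stands for, so the pairing comes from the data, and the fit without it is given first.

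The alternatives were DESeq2 1.42.0, its size factors within edgeR, limma 3.58.1 on TPM values (log2 with a pseudocount of 1 or 0.1), no filter on low counts, a replicate block, only the compared states, an adjusted p under 0.05, and each library left out in turn. Gene positions are from GENCODE vM21 and promoter windows from RefSeq on GRCm38.p6, the assembly that mm10 names.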

Additional observations from a re-analysis of the deposited data

Results flagged for a closer look

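Several responses of Klf genes differed between FCS/LIF and 2i/LIF by the test of the difference itself, the quasi-likelihood test of edgeR fitted to all 20 libraries, with Benjamini-Hochberg adjusted p-values. Values are the log2 fold change in FCS/LIF minus that in 2i/LIF. For the response to Esrrb loss the difference was -1.13 for Klf2 (adjusted p = 0.00186 from this edgeR test) and -1.66 for Klf4 (adjusted p = 0.000368 from this edgeR test). For the response to loss of both factors it was -2.09 for Klf2 (adjusted p = 7.48e-07), -1.41 for Klf4 (adjusted p = 0.000177), -0.56 for Klf3 (adjusted p = 0.00679) and 0.71 for Klf6 (adjusted p = 0.00269), all from this edgeR test. The −E−N difference of Klf4 was not called by limma on TPM values (-1.01), and neither was the −E difference of Klf2 (-0.98). That of Klf3 was called neither by limma (-0.30) nor without any of 9 of the libraries, and the call of Klf6 was lost without replicate 1 of +E+N (0.66) or replicate 2 of −E−N (0.60) of FCS/LIF. The medium and the culture batch cannot be told apart in these differences. The response of Esrrb RNA also differed between the media, by -1.70 in −E and -1.39 in −E−N. Its part in the Klf differences was not tested.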

How the results depend on the processing

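The number of the 9 genes called was compared across the alternatives, and the moves of more than 1.5 times come first. For the interaction it was 0 in both media and became 2 in FCS/LIF with DESeq2 or with no filter on low counts, and 1 in 2i/LIF with DESeq2, with no filter or with the replicate block. Over all genes, DESeq2 called 63 of 15636 in FCS/LIF, and the fit with no filter 242 of 29656. In 2i/LIF these were 303 of 14355 and 212 of 28991, and 324 of 14355 with the block. For −N against +E+N in 2i/LIF it went from 0 to 1, Klf5, with DESeq2, with no filter, with the replicate block and at an adjusted p under 0.05. Of all genes, DESeq2 called 860 of 14355 there, and the fit with no filter 828 of 28991. The block gave 1115 and the wider limit 980 of 14355. For −E−N against −E in 2i/LIF it went from 2 to 1 with limma on log2(TPM + 1) values and with the compared states alone, and lay between 1 and 2 with each library left out. This limma fit called 1406 of all 14355 genes, and the compared states alone gave 1541 of 14057. For the difference between media it went from 2 to 1 in the −E response with limma at either pseudocount (1 to 2 with each library left out), from 0 to 2 in the −N response with no filter and to 1 with the replicate block, and from 4 to 2 in the −E−N response with limma on log2(TPM + 1) values (2 to 4 with each library left out). Of all 16147 genes, limma called 280 for the −E response at a pseudocount of 1 and 119 at 0.1. For the −E−N response it called 2225 at a pseudocount of 1. The −N response had 809 of 31736 genes called with no filter and 686 of 16147 with the block. Smaller moves were seen for 2i/LIF against FCS/LIF in +E+N, from 4 to 5 with DESeq2, 3 with limma and 3 to 5 with each library left out, and with each library left out in FCS/LIF for −E (2 to 3), −E−N (4 to 5) and −E−N against −E (2 to 3). With limma on log2(TPM + 1) values, Klf8 was no longer called for 2i/LIF against FCS/LIF (0.70), nor Klf2 for the −E difference between media (-0.98), nor Klf3 (-0.30) and Klf4 (-1.01) for the −E−N difference. The cause of these moves was not tested.

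Over 2376 values of single genes under alternatives, 2317 kept their side of the limits, 35 were no longer past the limits, 24 came to be past them, and 0 called values changed sign. In 80 of the 2317 the sign changed while the value was past the limits in neither fit. In the paired comparisons of 2i/LIF named in the methods, the replicate block changed no other call. In the fit of both media it took Klf4 under the fold limit for 2i/LIF against FCS/LIF in +E+N (0.53), took Klf9 past it (-0.63), and made the −E−N difference of Klf5 between media a call (0.56). In FCS/LIF, correlations of same-numbered libraries lay between 0.0351 and 0.357. With 2 libraries per state in FCS/LIF and 3 in 2i/LIF, calls near the limits rest on single libraries. The lowest count behind any value was 262, of Klf4 in −E−N of FCS/LIF.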
